A study of Homo sapiens with 24 samples.

Results

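The replication-dependent histone genes, which supply the core histones H2A, H2B, H3 and H4 and the linker histone H1 while DNA is copied, were examined on microarrays of 2 lymphoma cell lines. Members were the rows of the expression table whose gene symbol is that of a clustered histone gene (H1-1 to H1-6, or H2AC, H2BC, H3C or H4C followed by a number, with the older HIST1H to HIST4H names also searched). The rule used symbols and no measured value. It found 63 of 25575 rows, which carry 62 of 25161 symbols: 6 rows of class H1, 15 of H2A, 16 of H2B, 12 of H3 and 14 of H4. H3C15 alone had 2 rows, called row 1 and row 2 below. All 62 symbols were found in the RefSeq gene table of assembly GRCh38.p14, 52 on chromosome 6 and 10 on chromosome 1.

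The arrays were human Clariom D chips, which carry probes along whole transcripts, hybridised with biotin-labelled cDNA made from total RNA of cultures of DG-75, derived from a Burkitt lymphoma, and SU-DHL-4, derived from a diffuse large B-cell lymphoma. Cells of either line grew for 72 h with DMSO as the vehicle, with the SYK kinase inhibitor Entospletinib (Ento) at 1 µM, with the bivalent BET protein inhibitor AZD5153 (AZD) at 0.01 µM, or with the 2 drugs together at those doses (Ento+AZD). There were 3 arrays in each of the 8 groups, and the submitters described them as biological triplicates. Each diagnosis is thus represented by 1 cell line, with no gene altered and no donor tissue. All values below are log2 expression on the scale the authors deposited, and all changes are differences of such values.

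Histone proteins package DNA into nucleosomes, and a cell must make a complete new set each time it copies its genome. The replication-dependent genes lie in clusters and mostly have no introns, and their mRNAs typically end in a stem-loop bound by SLBP in place of a poly(A) tail. The coactivator NPAT, activated by cyclin E with CDK2, drives their transcription in S phase, the phase of DNA synthesis, and the mRNAs are degraded when synthesis stops. H2A, H2B, H3 and H4 form the nucleosome core, and H1 binds the linker DNA between cores.

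The promoters of the classes differ in the short motifs they hold. RefSeq promoter windows (250 bases before to 50 after the start) were at hand for 58 of the 62 symbols. The CCAAT box, which NF-Y binds, was searched as CCAAT on both strands and was present in all 6 H1, 14 H2A, 16 H2B and 10 H3 windows. It was present in 3 of 12 H4 windows, beside 34.61% of all 35116 promoters in the table. The octamer ATTTGCAT, bound by POU factors such as POU2F1, was present on either strand in 14 of 16 H2B, 10 of 14 H2A and 1 of 10 H3 windows, and in none of the 6 H1 or 12 H4 windows, beside 1.774% of all promoters. TATAAA was found in 40 of 58 member windows, beside 11.53% of all promoters. Each motif was counted on its own, and in 0 of the 58 windows did matches of different motifs share bases. A match is a string and not a shown binding site. Of the member windows, 9 pairs overlapped on opposite strands, and 8 of these paired an H2A gene with an H2B gene. Of the 8 H2A genes in such pairs, 7 carried the octamer, and in all 7 the octamer lay in the bases shared with the H2B window.

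The 150 bases before the start are shown for 6 genes to which the results return, 1 or 2 per class. Bases are written 5′ to 3′ in the direction of transcription (GRCh38.p14), and capitals mark matches, on either strand, to the 3 motifs spelled out above.
H1-5, chr6:27867589-27867738, minus strand: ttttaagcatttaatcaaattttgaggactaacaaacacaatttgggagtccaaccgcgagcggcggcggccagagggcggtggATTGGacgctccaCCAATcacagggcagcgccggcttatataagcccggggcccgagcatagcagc
H2AC4, chr6:26033619-26033768, minus strand: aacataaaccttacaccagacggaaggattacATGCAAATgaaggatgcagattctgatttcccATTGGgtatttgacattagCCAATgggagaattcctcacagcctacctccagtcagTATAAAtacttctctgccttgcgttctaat
H2BC10, chr6:26272781-26272930, plus strand: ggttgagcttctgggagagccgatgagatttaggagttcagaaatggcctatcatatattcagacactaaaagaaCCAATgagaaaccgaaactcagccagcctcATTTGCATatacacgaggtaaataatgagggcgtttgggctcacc
H3C8, chr6:26271414-26271563, minus strand: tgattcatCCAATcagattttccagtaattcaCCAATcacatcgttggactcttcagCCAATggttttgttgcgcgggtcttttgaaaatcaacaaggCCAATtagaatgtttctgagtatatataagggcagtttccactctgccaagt
H4C4, chr6:26189113-26189262, minus strand: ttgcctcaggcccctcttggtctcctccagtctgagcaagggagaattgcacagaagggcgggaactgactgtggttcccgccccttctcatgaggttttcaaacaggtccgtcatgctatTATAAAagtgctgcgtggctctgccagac
H4C9, chr6:27139132-27139281, plus strand: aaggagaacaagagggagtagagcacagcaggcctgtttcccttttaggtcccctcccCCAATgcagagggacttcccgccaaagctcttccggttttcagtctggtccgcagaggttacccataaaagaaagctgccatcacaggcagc
H2AC4 and H2BC10 held an octamer and CCAAT, H3C8 held CCAAT 4 times, H1-5 held CCAAT on each strand, and the H4 genes H4C4 and H4C9 held only TATAAA or only CCAAT.

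Array medians over all rows lay between 4.89 and 5.14. Of 10 B-cell markers, 9 were above the array median on all 24 arrays, and of 10 markers of other blood cells 7 were below it on all. One set of arrays stood apart. The mean over the 63 histone rows was 8.56, 8.34 and 8.69 on replicates 1, 2 and 3 of SU-DHL-4 under DMSO, but 8.48, 7.54 and 8.66 under Ento, 8.15, 7.63 and 8.34 under AZD, and 7.88, 6.98 and 8.09 under Ento+AZD. Replicate 2 was thus the lowest in each SU-DHL-4 group, by far the most in the 3 treated groups, and the count of calls or the median without it is given beside the SU-DHL-4 comparisons of the histone rows. In DG-75 the means were 8.99, 8.80 and 8.88 under DMSO, 8.96, 8.91 and 8.72 under Ento, 8.41, 8.63 and 8.58 under AZD, and 8.34, 8.51 and 8.50 under Ento+AZD. In DG-75 the AZD and Ento+AZD arrays all lay below all DMSO and Ento arrays.

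Most histone rows were well expressed in both lines. Of the 63 rows, 51 were above the array median on all 24 arrays, 5 were below it on all and 7 were mixed. The 5 low rows were H2AC1 and H2BC1, which are known as testis-type histone genes, with H3C6, H4C6 and H4C7. The testis-type linker histone H1-6 lay below the median on 23 arrays. Rows of different probes cannot be ranked by level, so levels are given only as ranges. H1-4 lay between 11.30 and 12.29 over the 24 arrays, H2AC14 between 10.73 and 12.41, H2BC12 between 10.83 and 12.65, H3C11 between 10.24 and 11.51, and H4C5 between 11.44 and 12.26.

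The first question was whether the combination lowered histone mRNAs in SU-DHL-4. Under Ento+AZD all 63 histone rows had a lower mean than under DMSO, beside 64% of all rows, and 22 were called lower, which here means an adjusted p under 0.05 and a log2 change beyond 1 in size (limma with the replicate number as a block, Benjamini-Hochberg over all rows). None was called higher. The 22 rows are 34.9% of the members, beside 1.19% of all rows called in either direction and 1.09% called lower. By adjusted p alone 33 members (52.4%) were lower, beside 2.06% of all rows. The median change over members was -0.85, beside -0.08 over all rows. This call needs the block: without it none of the 63 passed, the 22 rows had adjusted p between 0.101 and 0.347, and 46 members (73%) had an unadjusted p under 0.05, beside 12% of all rows. Without replicate 2 of SU-DHL-4, 5 members were called and the median change was -0.58, with 61 of 63 rows still negative (96.8%, beside 59.4% of all rows), and without replicate 3 no member was called, nor any other row. It was 10 without replicate 1. Rescaling mattered less: 16 were called after quantile normalization and 13 after array medians were subtracted, which moved the median of all rows from -0.08 to 0.05, and 62 of 63 rows stayed negative under each.

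By class the calls in SU-DHL-4 under Ento+AZD were 8 of 14 for H4, 6 of 12 for H3, 5 of 15 for H2A, 3 of 16 for H2B and 0 of 6 for H1. The median changes followed a similar order, -1.10 for H4, -0.97 for H3, -0.83 for H2A, -0.78 for H2B and -0.56 for H1. Without replicate 2 they were -0.71, -0.75, -0.58, -0.50 and -0.35, so the order of H3 and H4 turned while H1 kept the smallest median fall. The H1 median includes H1-1 and H1-6, which lay below the array median on most arrays. They changed by -0.38 and -0.05, or by 0.03 and 0.05 without replicate 2. H1-2, H1-3, H1-4 and H1-5 changed by -0.91, -0.74, -0.35 and -0.96, or by -0.60, -0.46, -0.25 and -0.56 without it. The small H1 median thus leans on low rows, which the other classes also held. The classes were not tested against each other, because their rows share arrays and sequence.

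**Figure D1:**
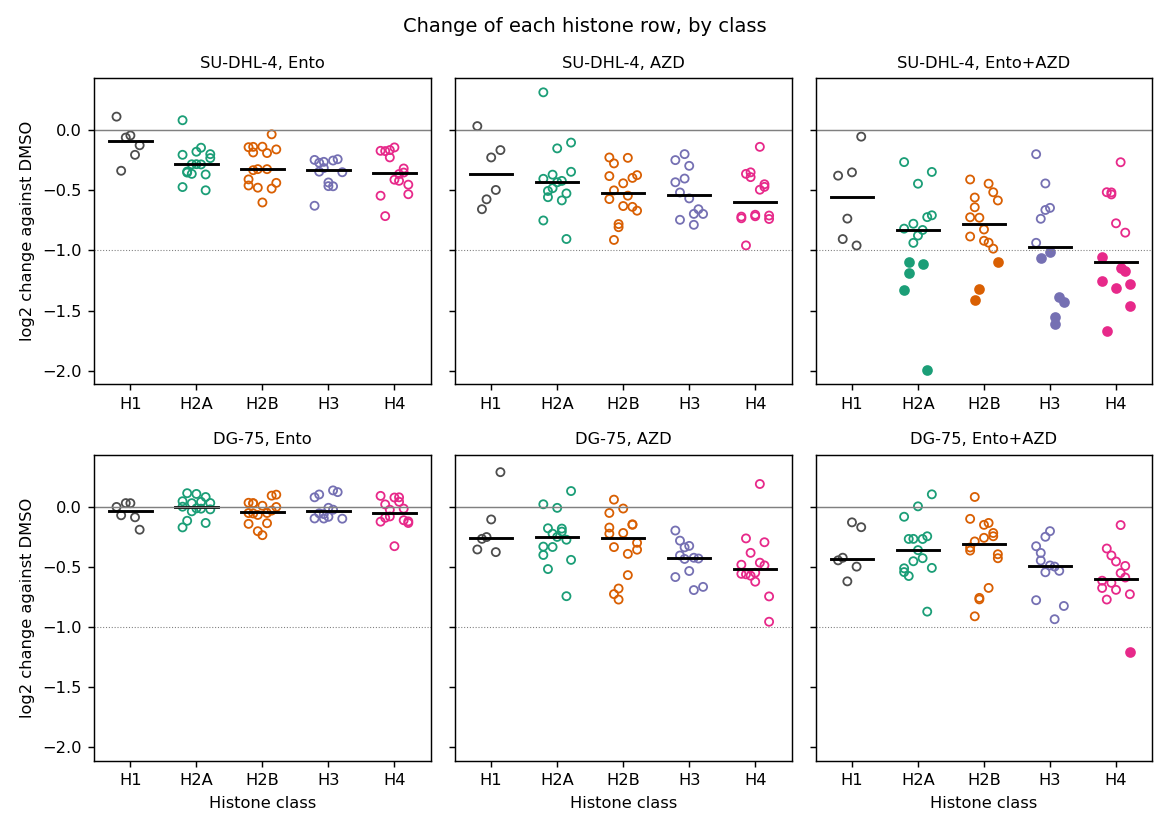
Each point is 1 histone row, with the log2 change against DMSO on the vertical axis and the 5 histone classes on the horizontal axis, for each treatment (columns) in SU-DHL-4 (top) and DG-75 (bottom). Filled points are called, black bars are class medians and the dotted line is a change of -1. Called rows appear under Ento+AZD only, 22 in the top row and 1 in the bottom row.

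H4C4, a gene for the core histone H4, had the smallest p. Its values in SU-DHL-4 were 8.83, 8.01 and 8.94 under DMSO, 8.28, 6.80 and 8.55 under Ento, 8.19, 6.69 and 8.02 under AZD, and 7.28, 6.13 and 7.35 under Ento+AZD. The DMSO and Ento+AZD arrays did not overlap, and replicate 2 was the lowest in each group. The change under Ento+AZD was -1.67 (SE 0.173, limma adjusted p = 0.00258), a 3.19-fold fall seen in 3 of 3 same-numbered pairs. Without replicate 2 it was -1.57 (adjusted p = 0.0293), and without the block its adjusted p was 0.167.

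H2AC4, a core H2A gene, had the largest change of any histone row over all arrays, while without replicate 2 that of H4C4 was larger (-1.57 against -1.46). It read 9.16, 8.63 and 9.19 under DMSO and 7.63, 5.56 and 7.80 under Ento+AZD in SU-DHL-4. The groups did not overlap, but replicate 2 fell by 3.07 while the others fell by 1.53 and 1.38. The fitted change was -2.0 (SE 0.277, adjusted p = 0.00567 by limma), and without replicate 2 its adjusted p was 0.0297.

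H3C8, an H3 gene, read 10.35, 9.88 and 10.38 under DMSO and 9.09, 7.40 and 9.28 under Ento+AZD. Its change was -1.62 (SE 0.233, adjusted p = 0.00597 by limma), and -1.18 without replicate 2. H4C9 read 8.74, 8.30 and 9.03 under DMSO and 7.26, 6.49 and 7.93 under the combination, with a fitted difference of -1.47 (SE 0.194, adjusted p = 0.00567 by limma). For both genes the DMSO and Ento+AZD arrays were fully apart, and both stayed called without replicate 2.

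H2BC10, an H2B gene, read 8.95, 8.48 and 9.08 under DMSO and 7.76, 6.37 and 8.15 under Ento+AZD. Its change was -1.41 (SE 0.204, adjusted p = 0.00597 by limma), and without replicate 2 it was -1.06 with an adjusted p of 0.0549, no longer called. The linker histone H1-5 read 11.92, 11.70 and 11.98 under DMSO and 11.24, 9.95 and 11.53 under Ento+AZD. Its groups did not overlap either, and its change of -0.96 (SE 0.208, adjusted p = 0.0339 by limma) passed the p but not the size threshold. Without replicate 2 it was -0.56 (limma adjusted p = 0.249). H1-2, the linker histone gene with the next smallest p, had a change of -0.91 with a limma adjusted p of 0.0731, or -0.60 without replicate 2.

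**Figure D2:**
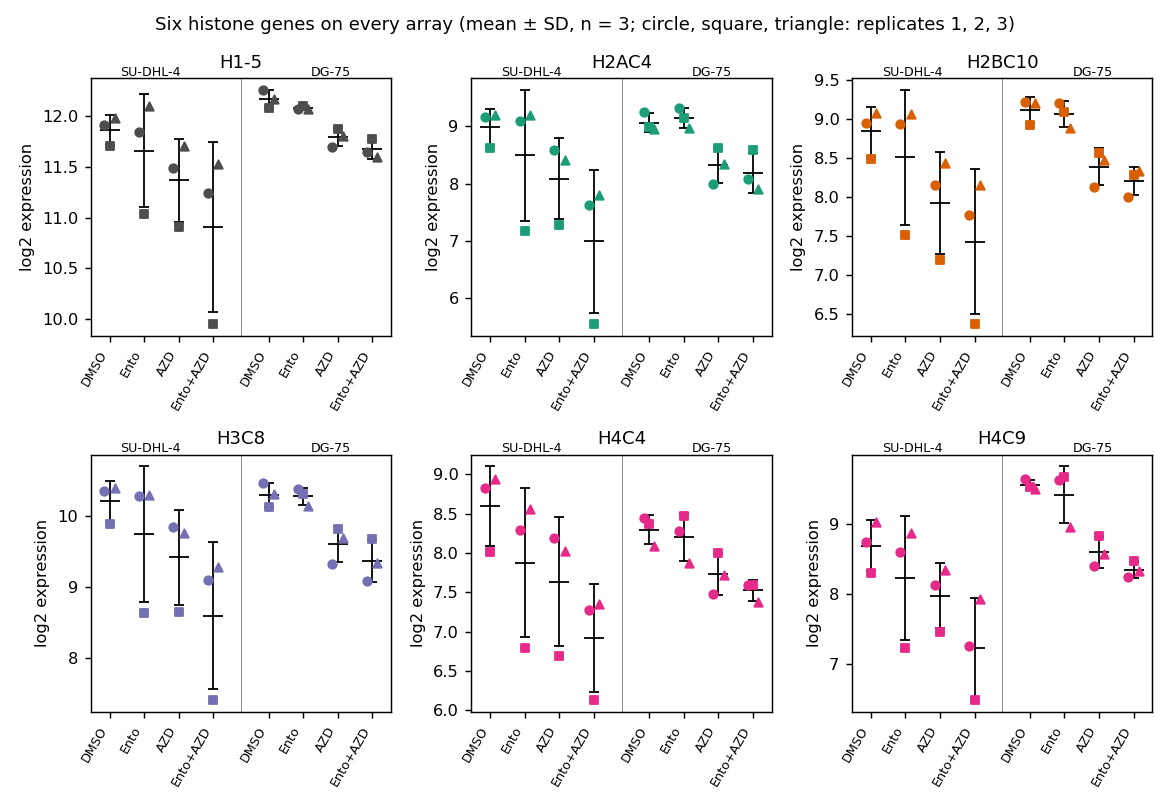
Log2 expression of 6 histone genes on each of the 24 arrays, with SU-DHL-4 left of the grey line and DG-75 right of it. Circles, squares and triangles are replicates 1, 2 and 3, and bars are mean ± SD (n = 3). In SU-DHL-4 the square lies lowest in every group, and the Ento+AZD arrays of each gene lie below its DMSO arrays in both lines.

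The other called rows of H4 were H4C13 (-1.32), H4C2 (-1.28), H4C1 (-1.26), H4C15 (-1.17), H4C14 (-1.15) and H4C3 (-1.05). Those of H3 were the rows of H3C15 (-1.55 and -1.39), H3C2 (-1.43), H3C10 (-1.06) and H3C13 (-1.01). In H2A they were H2AC8 (-1.33), H2AC11 (-1.19), H2AC21 (-1.11) and H2AC18 (-1.09), and in H2B they were H2BC11 (-1.32) and H2BC17 (-1.10). Without replicate 2 the 22 changes ran from -1.57 to -0.55, and 5 of them were smaller by more than 1.5 times: H3C2 (-0.81), the first row of H3C15 (-0.95), H4C15 (-0.71), H4C14 (-0.70) and H2AC18 (-0.55). With all arrays every one of the 22 was lower in 3 of 3 same-numbered pairs. Over 9 fits that each left out an array or a replicate number, H2AC4, H3C8, H4C2, H4C4 and H4C9 were called 8 times and H2AC18 never.

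Calls fell on both chromosomes. In SU-DHL-4 under Ento+AZD, 7 of the 11 rows on chromosome 1 were called with a median change of -1.09, and 15 of the 52 on chromosome 6 with a median of -0.82. Without replicate 2 the medians were -0.70 and -0.58, and 0 and 5 rows were called. In DG-75 the medians were -0.27 and -0.45, the other way round. Some chromosome 1 rows read almost alike. Those of H4C14 and H4C15 differed by 0.0447 on average over 24 arrays and by at most 0.124. Those of H3C15 differed by 0.0479 on average and by 0.478 on replicate 2 of Ento+AZD in SU-DHL-4, with at most 0.146 on any other array. Those of H2AC18 (called) and H2AC19 (-0.94, not called) differed by 0.0696 on average and by at most 0.477. The rows of each such pair may share transcripts, so their calls are not independent.

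Neither single agent gave a called histone gene in SU-DHL-4. Under AZD 61 of 63 rows (96.8%) were lower with a median change of -0.50, beside 63.9% of all rows lower, 42 (66.7%) had an unadjusted p under 0.05, beside 11.5% of all rows, and 0 passed the limma adjusted p, beside 0.18% of all rows called. H4C4 came closest at -0.96 (SE 0.173, adjusted p = 0.0515), then H4C2 at -0.74 (adjusted p = 0.101) and H2BC10 at -0.91 (adjusted p = 0.105). The class medians under AZD were -0.60 for H4, -0.54 for H3, -0.52 for H2B, -0.43 for H2A and -0.36 for H1. Without replicate 2 they were -0.45, -0.37, -0.41, -0.27 and -0.30, so that H2A was then the smallest. Without replicate 2 the median over members under AZD was -0.37, with 62 rows lower and 27 (42.9%) at an unadjusted p under 0.05, beside 61.9% and 13% of all rows. With all arrays the 2 rows above 0 were H2AC1 (0.31), below the array median on all 24 arrays, and H1-1 (0.03), below it on 21.

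Under Ento 61 rows were lower in SU-DHL-4 with a median of -0.32, beside 62.4% of all rows lower, 12 (19%) had an unadjusted p under 0.05, beside 8.59% of all rows, and 0 passed the limma adjusted p, beside 0.0508% of all rows called. That median rested on replicate 2. The same-numbered differences of the mean over all members were -0.08, -0.80 and -0.03, and without replicate 2 the median change was -0.02. H4C4 again had the smallest p, at -0.72 (SE 0.173, limma adjusted p = 0.286), and without replicate 2 it was at -0.46. Without it 36 of the 63 rows (57.1%) were lower under Ento, in place of 61, beside 50.9% of all rows.

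Setting the combination beside each agent asks what the second agent added. Against Ento alone, Ento+AZD had a median change over members of -0.58, with 43 rows (68.3%) at an unadjusted p under 0.05, beside 9.67% of all rows, and 0 called by limma, beside 0.0821% of all rows. The adjusted p of H4C4, H2AC4 and H2BC10 was 0.0749 there, with changes of -0.96, -1.5 and -1.08. This count sat close to its threshold: it was 7 when all 24 arrays were fitted together or when the prior variance followed the level, and 6 when low rows were omitted. Against AZD alone the median was -0.38, with 26 rows (41.3%) at an unadjusted p under 0.05, beside 7.03% of all rows, and 0 called, beside 0.0274% of all rows. H2AC4 had a change of -1.09 against AZD (adjusted p = 0.432 by limma). Without replicate 2 the median against Ento stayed close, at -0.59 with 47 rows at an unadjusted p under 0.05 (74.6%, beside 9.06% of all rows), while the median against AZD was -0.28 with 13 such rows (20.6%, beside 9.63%), and 0 members were called in either.

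The combined change was also set against the sum of the single changes. In SU-DHL-4 the departure had a median of -0.08 over members, 1 row with an unadjusted p under 0.05 (4.99% of all rows were) and 0 called, where 0% of all rows were called. For H4C4 it was 0.00 with a 95% interval from -0.53 to 0.53, and for H2AC4 it was -0.59 with an interval from -1.44 to 0.26. The median near 0 depended on replicate 2. Without it the median departure was -0.25, with 50 rows negative (79.4%, beside 45.8% of all rows) in place of 41 (65.1%, beside 41.7%). By unadjusted p under 0.05 there were 7 members (11.1%), beside 5.61% of all rows, and 0 were called. H4C4 was then at -0.33 (interval -0.90 to 0.25). A fall larger than the sum of the single changes was therefore neither shown nor bounded closely.

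In DG-75 the changes had the same sign with a smaller median. Under Ento+AZD 60 of 63 rows (95.2%) were lower, beside 61.4% of all rows, with a median change of -0.45, beside -0.07 over all rows. One member, H4C9, was called by limma (1.59% of members), beside 0.833% of all rows called and 0.708% called lower. By adjusted p alone 9 members (14.3%) were lower, beside 1.87% of all rows. They were H4C9 and H4C4 of H4, H3C8, H3C11 and H3C2 of H3, H2AC4 and H2AC11 of H2A, and H2BC10 and H2BC11 of H2B. Class medians were -0.60 for H4, -0.49 for H3, -0.44 for H1, -0.36 for H2A and -0.31 for H2B. The 3 rows above 0 were H2AC6 (0.10), H2BC21 (0.08) and H2AC20 (0.00).

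H4C9 in DG-75 read 9.64, 9.53 and 9.50 under DMSO, 9.63, 9.68 and 8.95 under Ento, 8.40, 8.83 and 8.57 under AZD, and 8.24, 8.47 and 8.33 under Ento+AZD. The AZD and Ento+AZD arrays lay below all DMSO and Ento arrays. Its change under Ento+AZD was -1.21 (SE 0.176, adjusted p = 0.0162 by limma) and lay between -1.11 and -1.28 when a replicate number was left out, with no call in any of those 3 fits. Against Ento alone it was also the single called member, at -1.07 (adjusted p = 0.0211), beside 0.657% of all rows called. It was not called there after quantile normalization, or without replicate 1 or 2 of Ento or of Ento+AZD. H2AC4, H2BC10 and H3C8 passed the adjusted p in that comparison with changes of -0.95, -0.85 and -0.91.

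Of the genes shown above, H2AC4 in DG-75 read 9.25, 8.98 and 8.95 under DMSO and 8.08, 8.58 and 7.90 under the combination, and its change was -0.87 (SE 0.190). H3C8 read 10.46, 10.12 and 10.31 under DMSO and 9.08, 9.67 and 9.34 under the combination, and its change was -0.94 (SE 0.182). H4C4 read 8.44, 8.36 and 8.08 under DMSO and 7.60, 7.60 and 7.37 under the combination, and its change was -0.77 (SE 0.156). In each the groups did not overlap.

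AZD alone in DG-75 had a median change over members of -0.34, with 58 rows (92.1%) lower, beside 60.5% of all rows, 31 (49.2%) at an unadjusted p under 0.05, beside 13.8% of all rows, and 0 passing the limma adjusted p, beside 0.18% of all rows called. H4C9 was nearest at -0.96 (adjusted p = 0.056), followed by H4C2 at -0.75 (adjusted p = 0.0892). Adding Ento to AZD gave a median of -0.10, with 52 rows (82.5%) lower, beside 50% of all rows. There 0 members and 0% of all rows were called by limma, and no member had an unadjusted p under 0.05, beside 4.03% of all rows. Ento alone gave a median of -0.02, with 39 rows (61.9%) lower, beside 51.1% of all rows, 0 at an unadjusted p under 0.05, beside 2.81%, and 0 called, beside 0.00391% of all rows. The departure from the sum of the agents was -0.08 at the median, with 49 rows (77.8%) negative, beside 48.6% of all rows. It had 0 members called, 0 at an unadjusted p under 0.05 (2.63% of all rows were), and 0% of all rows called.

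The lines were also fitted together. Under Ento+AZD all 63 rows were lower, beside 65.5% of all rows, 10 members (15.9%) were called by limma, beside 0.856% of all rows and 0.813% called lower, and 48 (76.2%) passed the adjusted p alone, beside 7.03% of all rows lower. The called rows were H2AC4 (-1.43), H4C9 (-1.34), H3C8 (-1.28), H4C4 (-1.22), H2BC10 (-1.16), H3C2 (-1.13), H2BC11 (-1.04), 1 row of H3C15 (-1.03), H4C2 (-1.0) and H4C13 (-1.0). H4C9 was lower in 6 of 6 same-numbered pairs (SE 0.142, adjusted p = 2.32e-05 by limma). Here the block did not decide the count, which was also 10 without it, but it was 6 after quantile normalization, 6 with array medians subtracted, 6 without replicate 2 of both lines and 5 without replicate 2 of SU-DHL-4 under DMSO or under Ento+AZD. Without all 4 SU-DHL-4 arrays of replicate 2, with DG-75 complete, 4 members were called and 41 passed the adjusted p alone. All 63 rows were lower there, beside 63.4% of all rows of the table.

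For AZD over both lines 0 members passed both thresholds, beside 0.254% of all rows, while 24 (38.1%) passed the adjusted p alone, beside 4.29% of all rows lower. Of these 24, 10 were H4 rows of 14, 5 H2A of 15, 5 H2B of 16, 4 H3 of 12 and 0 H1 of 6. Without the SU-DHL-4 arrays of replicate 2, 23 passed, but the split by class changed. H1-2 and H1-5 were then among them (limma adjusted p = 0.0495 and 0.0206). For Ento over both lines the median was -0.17 (-0.04 without those arrays), with 6 rows (9.52%) at an unadjusted p under 0.05, beside 6.36% of all rows, and 0 called by limma, beside 0.00782% of all rows.

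The members' changes in the lines are set side by side as a description. Under Ento+AZD 60 rows were lower in both lines, and 58 of 63 fell further in SU-DHL-4, where 52.09% of all rows had the lower change. Without replicate 2 of SU-DHL-4 the count was 54, beside 47.77% of all rows, but the median changes were then -0.58 and -0.45. Across the 63 rows the changes correlated with Pearson's r of 0.65 and Spearman's rho of 0.62. Rows share arrays and sequence and are not independent replicates.

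**Figure D3:**
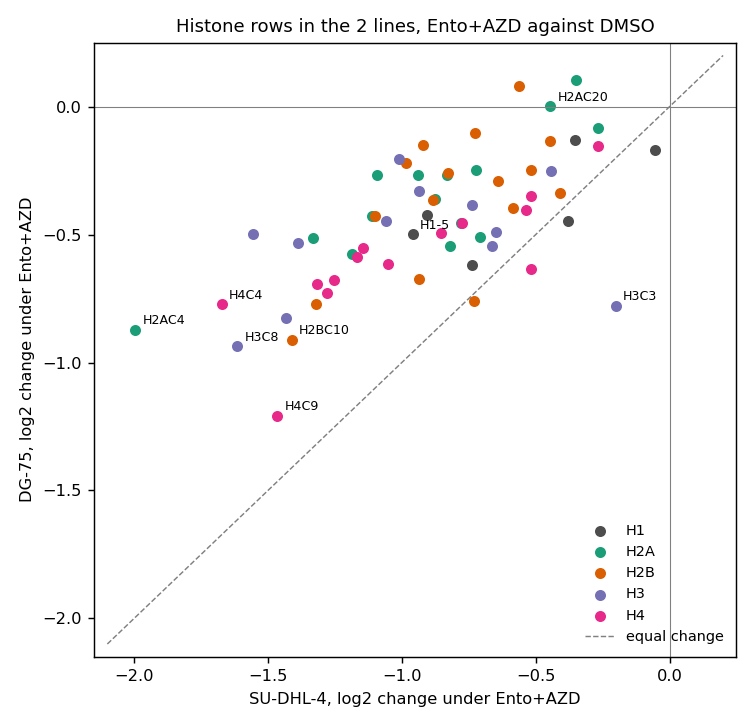
Each point is 1 histone row, coloured by class, with its log2 change under Ento+AZD against DMSO in SU-DHL-4 on the horizontal axis and in DG-75 on the vertical axis. The dashed line marks equal change. Of 63 points, 58 lie above that line, and H4C9 is lowest on the vertical axis.

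The difference between the lines in response was tested itself. For Ento+AZD the median difference (SU-DHL-4 minus DG-75) over members was -0.48, 21 rows (33.3%) had an unadjusted p under 0.05, beside 6.51% of all rows, and 0 were called by limma, beside 0.0352% of all rows. H4C4 had the smallest p with a difference of -0.90 (95% interval -1.38 to -0.42, adjusted p = 0.246). For H4C9 the difference was -0.26 with an interval from -0.82 to 0.31. For Ento the median difference was -0.27 with 0 called and 2 rows at an unadjusted p under 0.05 (3.17%, beside 4.43% of all rows), where 0.00782% of all rows were called. For AZD it was -0.16 with 0 called, no row at an unadjusted p under 0.05 (6.16% of all rows were), and 0% of all rows called. These differences rested largely on replicate 2 of SU-DHL-4. Without its 4 arrays the median difference was -0.20 for Ento+AZD, with 2 rows at an unadjusted p under 0.05 in place of 21 (3.17%, beside 6.62% of all rows), 0.01 for Ento and -0.02 for AZD, and 0 members were called in each. H4C4 was then at -0.79 (interval -1.29 to -0.30, limma adjusted p = 0.461) for Ento+AZD. A larger fall in SU-DHL-4 was thus not shown for any single histone gene.

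Before treatment most histone rows read somewhat lower on the SU-DHL-4 arrays. Under DMSO 52 of 63 rows (82.5%) had the lower mean in SU-DHL-4, beside 48.3% of all rows, with a median difference of -0.35, beside 0.01 over all rows. By class the medians were -0.46 for H2B, -0.39 for H3, -0.38 for H2A, -0.30 for H1 and 0.00 for H4, whose rows were split evenly, 7 of 14 lower. Without replicate 2 of SU-DHL-4 the median was -0.25 with 47 rows lower, and H4 was at 0.12. Few rows passed both thresholds. Under DMSO, 4 members (6.35%) were called between SU-DHL-4 and DG-75 by limma, a share near the 7.2% of all rows called. At an unadjusted limma p under 0.05 were 23.8% of members, beside 27.6% of all rows. Without replicate 2 of SU-DHL-4 these shares were 46% and 25.9%, so the likeness of members to all rows by p depended on that replicate. H3C3 read 3.93, 3.27 and 3.34 on the SU-DHL-4 arrays against 5.90, 5.53 and 5.92 on those of DG-75, a difference of -2.27 (SE 0.219, adjusted p = 3.84e-08). The groups were fully apart. Each SU-DHL-4 value lay below the mean of the 10 other-blood-cell markers on its array (4.01, 4.19 and 4.13), and the deposited table holds no detection calls, so the size is a difference of signals and a fold of the transcript cannot be read from it. The same holds for H1-1, at 3.45, 3.95 and 4.0 in SU-DHL-4, and for H4C6, at 3.37, 3.95 and 3.87 in DG-75 (marker means 4.10, 4.11 and 4.17). H1-1 was lower in SU-DHL-4 by 1.28 on the log2 scale (limma change -1.28, adjusted p = 0.000603), H2BC3 differed by -1.03 (adjusted p = 0.0376) and H4C6 was the 1 called row higher in SU-DHL-4 (adjusted p = 0.00498). The count was 0 when rows of low level were omitted from the test.

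Class means per array show the treatment changes with their replicate spread. The same-numbered differences from DMSO of the H4 mean in SU-DHL-4 averaged -0.99 ± 0.32 (SD, n = 3) with the combination, -0.57 ± 0.18 with AZD and -0.36 ± 0.39 with Ento alone. For H3 they averaged -0.97 ± 0.44, -0.52 ± 0.22 and -0.36 ± 0.42 in the same order. For H1 they averaged -0.56 ± 0.46, -0.35 ± 0.20 and -0.11 ± 0.48. The spread under Ento was as large as the change in each class. Over replicates 1 and 3 alone the combination averaged -0.81 for H4, -0.73 for H3 and -0.30 for H1, and Ento -0.13, -0.12 and 0.16. In DG-75 the H4 mean changed by -0.59 ± 0.21 under Ento+AZD and -0.48 ± 0.20 under AZD, and the H1 mean by -0.38 ± 0.20 and -0.18 ± 0.24.

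**Figure D4:**
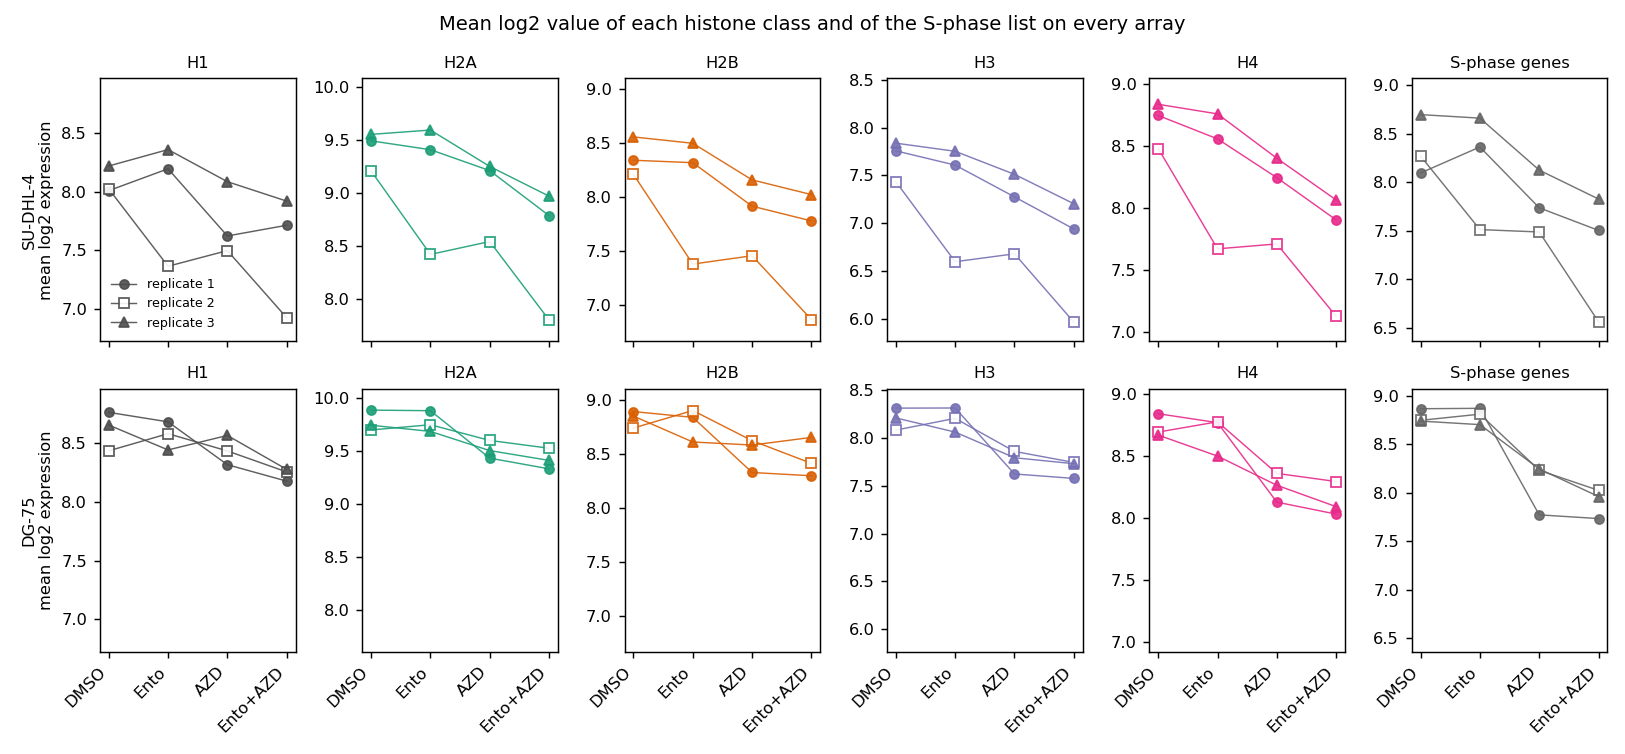
Mean log2 expression of each histone class (columns 1 to 5) and of the S-phase gene list (column 6) on every array, with treatment on the horizontal axis, for SU-DHL-4 (top) and DG-75 (bottom). Lines join arrays with the same replicate number. Replicate 2 (open squares) of SU-DHL-4 lies lowest under Ento, AZD and Ento+AZD in all 6 columns.

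Histone rows rose and fell together within groups. After group means were subtracted, the correlation over 24 arrays had a median of 0.84 over the 397 pairs of rows of the same class and 0.81 over the 1556 pairs of different classes. Much of this came with replicate 2 of SU-DHL-4: without its 4 arrays the medians were 0.44 and 0.40 over the other 20 arrays. For H2AC4, the row most like it was H3C8, with all arrays (r = 0.99) and without those 4 (r = 0.85). Genes whose promoter windows overlap had a median correlation of 0.90 over 9 pairs, from -0.05 for the testis-type pair H2AC1 and H2BC1 to 0.96 for H2BC21 and H2AC20, and the median was 0.55 without the 4 arrays. In 1 of the 9 pairs, H2BC11 with H2AC11, both genes were called in SU-DHL-4 under Ento+AZD (-1.32 and -1.19). H2AC8 was called (-1.33) but its partner H2BC8 was not (-0.89), and H2BC17 was called (-1.10) while H2AC17 was not (-0.82). Without replicate 2 of SU-DHL-4 none of these paired genes was called (limma adjusted p from 0.0602 for H2AC8 to 0.102 for H2AC11 among those called before). Partners were not tested against each other.

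Genes of DNA replication were also called lower. Of 35 S-phase genes (helicase, origin, polymerase and nucleotide synthesis genes), 17 were called lower by limma under Ento+AZD in SU-DHL-4, beside 1.09% of all rows. The list median was -1.07, and all 35 had a negative change, beside 64% of all rows. The polymerase epsilon subunit gene POLE2 changed by -2.04 (SE 0.284), GINS2 of the replicative helicase by -1.73, the thymidylate synthase gene TYMS by -1.67 and PCNA, the sliding clamp, by -1.26. In DG-75 the list median was -0.84, with POLE2 at -1.64 and CDC45, a helicase cofactor, at -1.30. There 10 of 35 were called lower, beside 0.708% of all rows. That count was 6 after quantile normalization, 4 with array medians subtracted and 0 without any 1 replicate number.

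The list mean per array was 8.10, 8.27 and 8.70 under DMSO in SU-DHL-4 and 7.50, 6.56 and 7.83 under Ento+AZD, where replicate 2 was lowest. In DG-75 it was 8.86, 8.75 and 8.74 under DMSO and 7.73, 8.02 and 7.96 under Ento+AZD. The same-numbered differences from DMSO under Ento+AZD were -0.59, -1.71 and -0.87 for the S-phase mean and -0.68, -1.36 and -0.59 for the mean of all histone rows in SU-DHL-4. In DG-75 those of the S-phase mean (-1.13, -0.72 and -0.78) were each lower than those of the histone mean (-0.66, -0.29 and -0.38). Under Ento in SU-DHL-4 replicate 1 went opposite ways, 0.27 for the S-phase mean and -0.08 for the histone mean. Without the block 1 of the 35 was called in SU-DHL-4, with 2 without replicate 2 and 0 without replicate 3. The part that the share of cells in S phase had in the histone changes was not tested, and in bulk RNA fewer cells in S phase and less histone mRNA per such cell cannot be told apart.

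Of 31 genes for the transcription, processing and decay of histone mRNA, 2 were called lower in SU-DHL-4 under Ento+AZD, CCNE2 (-1.37), which encodes cyclin E2, and CDK2 (-1.36), its kinase partner, and the list median was -0.18. The coactivator NPAT had a change of -0.02 (SE 0.181), the H4 transcription factor gene HINFP 0.09 (SE 0.132) and the stem-loop binding protein gene SLBP -0.18 (SE 0.182), none past the test. These 3 were picked for their known roles. In DG-75 none of the 31 was called and the median was -0.34. POU2F1, whose product binds the octamer, passed the adjusted p but not the size threshold there (-0.75, limma adjusted p = 0.0214), as did LSM11 of the U7 particle that cuts histone pre-mRNA (-0.97, adjusted p = 0.0356).

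Of 19 histone chaperone genes with a row, CHAF1B was called in both lines, under Ento+AZD, at -2.05 (SE 0.285) for SU-DHL-4 and -1.20 (SE 0.180) for DG-75. It encodes a subunit of CAF-1, which places new H3 and H4 on copied DNA. MMS22L, needed for the recovery of stalled replication forks, was called in DG-75 (-1.17). The list medians were -0.36 and -0.37.

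Genes of histone variants that can be made outside S phase had a median change under Ento+AZD of -0.28 over 16 genes in SU-DHL-4, beside -0.21 for the same genes in DG-75. In SU-DHL-4, 2 were called lower, H2AX (-1.08), known for its role at DNA breaks and for also making a stem-loop mRNA without a poly(A) tail in S phase, and the centromeric H3 variant CENPA (-1.15). In DG-75 no variant gene was called, with CENPA at -0.71 and H2AX at -0.62. B-cell markers had medians of 0.13 and 0.43, with CD79B called higher in DG-75 (1.03), and of 10 markers of other blood cells none was called in either line.

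The calls outside the S-phase list changed with the fit and the arrays used. Of the 5 such genes called in SU-DHL-4 (CHAF1B, CCNE2, CDK2, H2AX and CENPA), 0 were called without the replicate block, 3 without replicate 1, 1 (CHAF1B, -1.46) without replicate 2 and 0 without replicate 3. All 3 in DG-75 (CHAF1B, MMS22L and CD79B) were called without the block and none without any 1 replicate number.

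**Figure D5:**
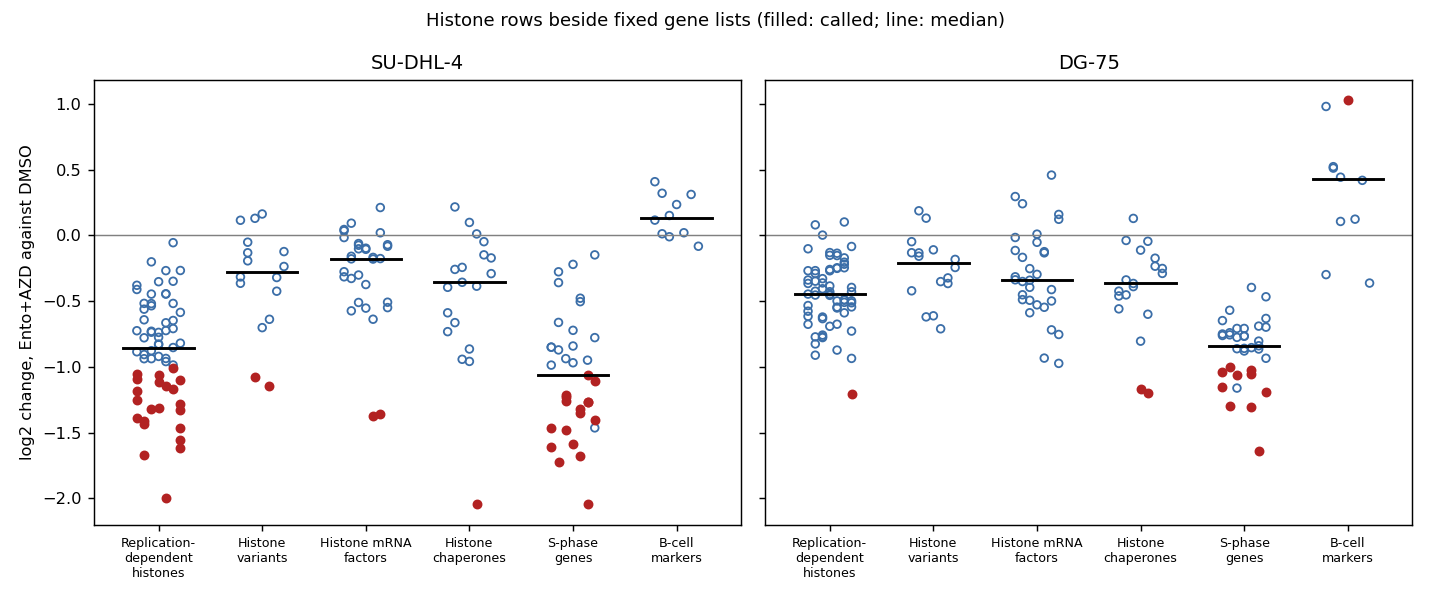
Log2 change under Ento+AZD against DMSO of the 63 histone rows and of 5 gene lists (horizontal axis), in SU-DHL-4 (left) and DG-75 (right). Each point is a row, filled red where called, and black bars are medians. The histone rows (medians -0.85 and -0.45) and the S-phase genes (-1.07 and -0.84) have the lowest medians, and the B-cell markers lie around or above 0.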

How the data were processed

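The authors deposited 1 table of log2 expression values for 24 Clariom D arrays, made by RMA background correction, normalization and summary, with probes mapped to genes through the array's annotation package. Software versions and the genome build of that annotation are not given in the sources used here. The number of arrays limits precision.

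Members were chosen by symbol, and the members, gene lists and motifs were chosen with earlier results of these data known. Linear models were fitted over all 25575 rows with limma 3.58.1 in R 4.3.3 (lmFit, contrasts.fit, eBayes) with Benjamini-Hochberg adjustment. The study's model has additive terms for treatment, line and batch. That form was used over both lines, with replicate number within line, while each line was also fitted alone with treatment and replicate number, which departs from it. Which samples formed a batch is not stated in the labels, so the replicate number stood in for it, except between the untreated lines, fitted with no block. A row was called if its adjusted p was under 0.05 and its log2 change exceeded 1 in size. The script was tested on simulated data. Genes could be named if called, if among the 2 smallest p per class and treatment, or by class level, spread or list, and other rows were named after their values were seen. Where a symbol had several promoter entries, the first was used.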

Additional observations from a re-analysis of the deposited data

How the results depend on the processing

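In SU-DHL-4 with the combination (22 members called against DMSO), the count was 0 with no replicate block, 13 with array medians subtracted and 0 to 19 when an array or a replicate number was left out, with 6 without replicate 2 of Ento+AZD, 7 without replicate 2 of DMSO and 0 without replicate 3. Against Ento alone (0) it was 7 in 1 fit of all 24 arrays, 6 with rows under the median row omitted, 7 with a trend and robust prior variance, and 0 to 2 with arrays left out (2 without Ento replicate 2). In DG-75 under Ento+AZD (1) it was 9 with no fold minimum and 0 to 2 with arrays left out, being 0 without replicate 1 or 3 of DMSO or replicate 1 or 2 of Ento+AZD, and against Ento (1) it was 0 after quantile normalization, 4 with no fold minimum and 0 to 1 with arrays left out (0 without replicate 1 or 2 of Ento or of Ento+AZD). Over both lines it was 24 for AZD (0) with no fold minimum, and for Ento+AZD (10) it was 6 after quantile normalization, 6 with array medians subtracted, 48 with no fold minimum and 4 to 14 with arrays left out, the 4 being without the SU-DHL-4 arrays of replicate 2, a fit chosen after seeing the data. Between the untreated lines (4) it was 0 with low rows omitted and 2 to 5 with arrays left out, being 2 without replicate 1 of either line. The cause was not tested. With arrays left out, the median change over members ran from -0.98 to -0.58 for Ento+AZD, -0.65 to -0.29 for AZD and -0.45 to -0.02 for Ento in SU-DHL-4, where the last all but vanished, and from -0.51 to -0.34, -0.42 to -0.23 and -0.09 to 0.05 in DG-75.

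The replicate numbers were not shown to pair the arrays: the deviations of same-numbered arrays from their group means correlated above 0.1 in 19 of 36 pairs (12 of 18 in SU-DHL-4, 7 of 18 in DG-75), from -0.35 to 0.39. Over member rows alone it was 14 of 18 in SU-DHL-4, with 0.34 to 0.74 in the 9 pairs of treated groups, and 8 of 18 in DG-75. For DMSO with Ento+AZD in SU-DHL-4, replicates 1 to 3 gave -0.14, 0.02 and 0.41 over member rows. Over all rows the same pairs gave -0.001, 0.17 and 0.15. Over all rows, all 3 pairs were above 0.1 in SU-DHL-4 for DMSO with AZD and for Ento with Ento+AZD, and in no other 2 groups of either line. Without the replicate block the DG-75 count under Ento+AZD stayed at 1 and the count over both lines at 10. The fits of the gene lists were chosen after seeing the data.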
